A study of Mus musculus with 4 samples.

Results

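Transcripts of 10 bile acid and organic anion transporter genes were compared between livers of SREBP1c knockout (KO) and wild-type (WT) mice. The 10 were taken by gene symbol from a table of 23920 genes, and the 13 transcript rows that carry them were summed by gene number: Slc10a1, Slco1a1, Slco1a4, Slco1b2 and Slco2b1 as importers of the sinusoidal membrane, Abcb11, Abcb4, Abcc2 and Atp8b1 as proteins of the canalicular membrane, and Abcc3 as an exporter of the basolateral membrane. The series holds 2 KO and 2 WT libraries of liver RNA. Both genotypes were C57BL/6 males, 12 weeks old, killed after a 24 h fast and 12 h of refeeding. The labels give the KO only as SREBP1c KO. How the allele was made, and whether it acts in all tissues, is not stated in the labels. SREBP1c, a product of Srebf1, is a transcription factor that insulin induces in liver and that drives genes of fatty acid synthesis.

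Hepatocytes take bile acids and other organic anions from portal blood across the sinusoidal (basolateral) membrane and secrete them across the canalicular membrane into bile. NTCP, encoded by Slc10a1, carries conjugated bile acids inward together with sodium, and the OATP proteins of the Slco genes carry bile acids, bilirubin, hormones and drugs without sodium. BSEP (Abcb11) is the canalicular bile salt pump, MRP2 (Abcc2) exports conjugated anions, MDR2 (Abcb4) delivers phosphatidylcholine to bile, and ATP8B1 flips aminophospholipids to the inner leaflet of the canalicular membrane. MRP3 (Abcc3) returns conjugates to the blood. FXR, the nuclear receptor for bile acids encoded by Nr1h4, is a known activator of Abcb11.

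The importers Slc10a1, Slco1a4 and Slco1a1 had the largest differences among the 10, with both KO values of each below both WT values, by 37.7%, 42.6% and 30.5% of the WT mean. Slco1b2, the other abundant importer, overlapped between the genotypes. In the canaliculus Abcc2 and Abcb11 were lower by 19.2% and 12.5%, while Abcb4 and Atp8b1 overlapped between the genotypes. Abcc3 was the only one of the 10 whose KO libraries both lay above both WT libraries. None of the 10 passed the limma threshold (adjusted p under 0.05 over the 9820 genes with a mean of at least 1 FPKM), a threshold that 0.0713% of those genes passed (0.0611% lower and 0.0102% higher in KO).

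The promoter windows of 5 of these genes are shown because they hold the contrast among the importers: Slc10a1 as the importer with the highest mean over the 4 libraries, Slco1a1, Slco1a4 and Slco1b2 as members of the Slco gene cluster on chromosome 6 with unlike differences, and Abcb11 as the canalicular partner of Slc10a1. They are RefSeq windows (GRCm38.p6) of 250 bases before to 50 bases after a start site, 5′ to 3′ on the strand of the gene. Capitals mark AGGTCA, the core motif that many nuclear receptors bind, or its reverse complement.
Slc10a1, chr12:80968030-80968329, minus strand: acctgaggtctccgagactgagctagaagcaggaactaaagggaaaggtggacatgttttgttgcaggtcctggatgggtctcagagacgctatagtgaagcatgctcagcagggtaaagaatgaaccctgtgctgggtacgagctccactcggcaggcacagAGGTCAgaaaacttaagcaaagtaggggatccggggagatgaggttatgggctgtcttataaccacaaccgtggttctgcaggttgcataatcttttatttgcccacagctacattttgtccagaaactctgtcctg
Slco1a1, chr6:141946913-141947212, minus strand: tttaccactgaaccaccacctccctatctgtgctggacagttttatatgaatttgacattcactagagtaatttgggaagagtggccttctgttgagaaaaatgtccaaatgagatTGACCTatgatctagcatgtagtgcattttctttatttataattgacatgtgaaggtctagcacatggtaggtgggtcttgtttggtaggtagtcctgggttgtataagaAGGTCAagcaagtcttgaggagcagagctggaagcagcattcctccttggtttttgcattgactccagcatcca
Slco1a4, chr6:141856171-141856470, minus strand: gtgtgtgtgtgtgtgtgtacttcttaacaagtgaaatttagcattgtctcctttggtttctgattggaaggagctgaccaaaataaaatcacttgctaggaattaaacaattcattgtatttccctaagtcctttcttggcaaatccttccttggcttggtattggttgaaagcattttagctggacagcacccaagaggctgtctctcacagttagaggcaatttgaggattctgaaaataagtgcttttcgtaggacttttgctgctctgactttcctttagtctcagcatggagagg
Slco1b2, chr6:141629268-141629567, plus strand: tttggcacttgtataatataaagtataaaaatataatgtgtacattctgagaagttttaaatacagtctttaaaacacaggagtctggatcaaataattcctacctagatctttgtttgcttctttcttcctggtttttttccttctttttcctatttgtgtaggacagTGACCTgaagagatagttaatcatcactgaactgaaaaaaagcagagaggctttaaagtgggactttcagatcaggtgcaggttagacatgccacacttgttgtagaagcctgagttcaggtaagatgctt
Abcb11, chr2:69342567-69342866, minus strand: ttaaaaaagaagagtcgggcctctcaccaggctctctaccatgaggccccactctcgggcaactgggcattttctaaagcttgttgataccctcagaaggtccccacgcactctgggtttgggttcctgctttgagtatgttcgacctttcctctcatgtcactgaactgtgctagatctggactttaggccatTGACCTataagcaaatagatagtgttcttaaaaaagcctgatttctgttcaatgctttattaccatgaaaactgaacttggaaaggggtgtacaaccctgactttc

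AGGTCA began 87 bases before the start of Slc10a1, 134 and 24 bases before that of Slco1a1, 81 bases before that of Slco1b2 and 56 bases before that of Abcb11. It was not in the Slco1a4 window, nor in a second window of Slc10a1 at chr12:80968656-80968955. Windows on 8 of the 10 genes were searched on both strands, 11 windows in all, and those of Abcc3 and Atp8b1 were not analysed here. Of the 11, 5 held AGGTCA (the fifth that of Abcc2), as did 16.3% of the 32851 RefSeq windows of the same length. TCACNCCAC, a form of the sterol regulatory element that SREBP proteins bind, was in none of the 11 windows and in 1.24% of all windows. GTTAAT, a core of HNF1 sites, was in the Slco1b2 window alone and in 7.1% of all windows. No matches of different motifs overlapped in the 11 windows. AGGTCA matches stood before genes with lower values in both KO libraries (Slc10a1, Slco1a1, Abcb11, Abcc2) and before Slco1b2, whose groups overlapped. Slco1a4 and Slco2b1, also lower in both KO libraries, had no match in the windows read. Nor had Abcb4, whose groups overlapped. These are matches of letters and show no binding.

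Levels are in FPKM, fragments scaled by transcript length and by library depth, which can be set side by side between genes because they are per length. The order of the mean levels over the 4 libraries was Slc10a1 (282.7 FPKM), Slco1b2 (223.3), Abcb11 (139.4), Abcb4 (54.4), Slco1a1 (51.5), Abcc3 (48.5), Abcc2 (46.7), Slco2b1 (35.9), Atp8b1 (7.27) and Slco1a4 (2.38). Slc10a1 ranked at position 310 and Slco1b2 at 394 of the 9820 genes by mean FPKM. The ranges over libraries of Slc10a1 and Slco1b2 overlapped, and so did those of each neighbouring pair in the stretch of Abcb4, Slco1a1, Abcc3 and Abcc2. The other neighbours in this order did not overlap. Within a genotype the order of the means differed. In KO Slco1b2 (222.1 FPKM) stood above Slc10a1 (217.1), and Slco1a1 (42.2) below Abcc3 (50.7), while in WT Slc10a1 (348.4) stood above Slco1b2 (224.6) and Slco1a1 (60.7) above Abcb4 (54.3).

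**Figure D1:**
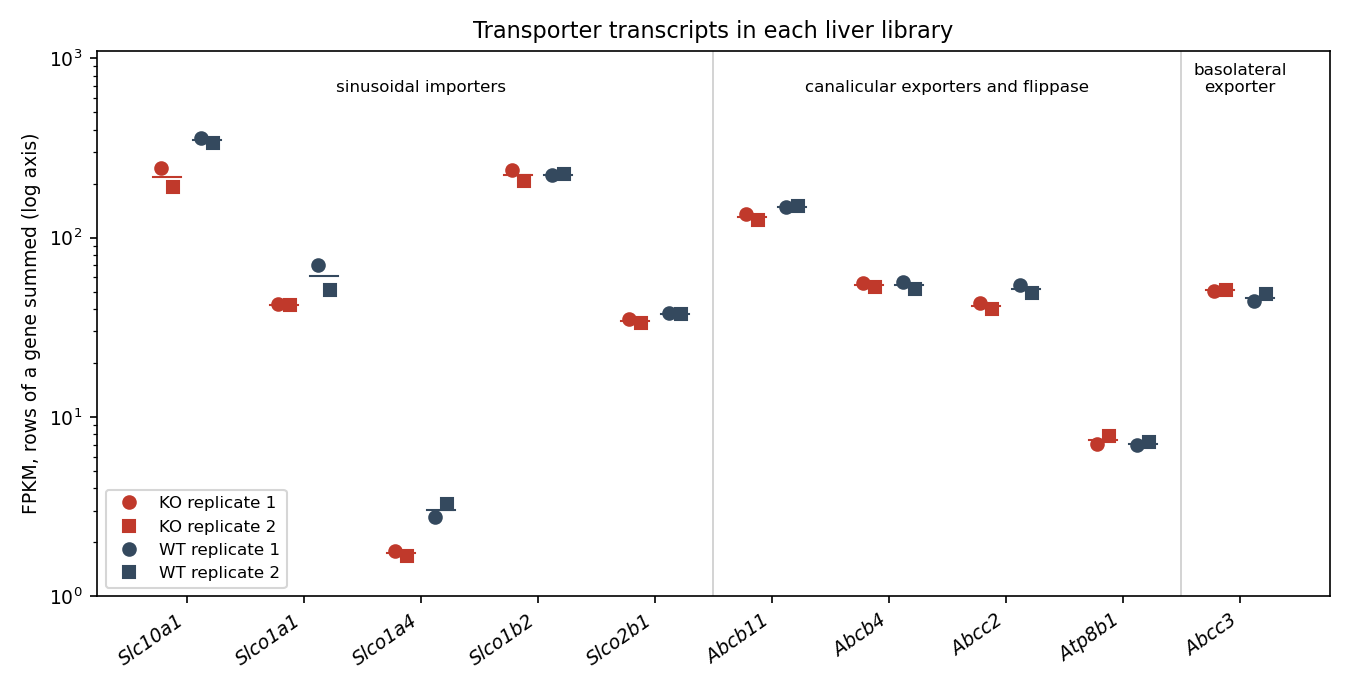
FPKM of each transporter (rows of a gene summed, log axis) in the 2 KO libraries (red) and the 2 WT libraries (dark), with a bar at each group mean. Slc10a1, Slco1a1, Slco1a4, Slco2b1, Abcb11 and Abcc2 have both red points under both dark points, and Abcc3 has them above.

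Slc10a1 (gene number 20493, chromosome 12, 80953185 to 80968705, GRCm38) had 244.1 and 190.2 FPKM in the KO libraries, against 360.1 and 336.7 FPKM in the WT libraries. Both KO libraries were below both WT libraries, and KO replicate 2 was the lowest of the 4. The means were 217 ± 38.1 FPKM in KO and 348 ± 16.6 FPKM in WT (SD, n = 2 each), with a log2 difference, KO minus WT of log2(FPKM + 1), of −0.69 (SE 0.16, 95% interval −1.08 to −0.30, limma adjusted p = 0.371). The difference was larger than the gap between the libraries of either genotype, 0.36 on the same scale at most. Without KO replicate 1 it was −0.87, and without KO replicate 2 it was −0.51. Each of these fits had 1 KO library and so no spread among KO libraries. KO replicate 2, the library kept in the first, stood apart in acute phase genes, as given below. Over all genes the number called was 7 with all libraries, 306 without KO replicate 1, 117 without KO replicate 2, 1 without WT replicate 1 and 4 without WT replicate 2.

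Slc10a1 is carried by 2 rows that differ in coding length. NM_001177561 has 5 exons and 1086 coding bases in the matched GENCODE M21 transcript, starts at the window printed above, and held 99.2% of the summed FPKM. NM_011387 has 4 exons and 951 coding bases, with 1.13 and 1.99 FPKM in the KO libraries, against 3.06 and 2.59 FPKM in the WT libraries. Both rows were lower in both KO libraries, with log2 differences of −0.69 and −0.60 when rows were tested in place of gene sums (limma adjusted p = 0.559 and 0.67). How the authors' program divided fragments between overlapping transcripts is not stated in the labels or headers. The minor row rests on an estimated 36 to 99 fragments a library.

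Slco1a4, which encodes OATP1A4, was the least abundant of the 10. It had 1.79 and 1.68 FPKM in the KO libraries, against 2.77 and 3.27 FPKM in the WT libraries, with no overlap. The means were 1.73 ± 0.080 FPKM in KO and 3.02 ± 0.348 FPKM in WT (SD, n = 2 each), and the log2 difference was −0.55 (SE 0.12, 95% interval −0.84 to −0.27, limma adjusted p = 0.313), a scale that understates the change at such low levels. With any 1 library left out the difference lay between −0.64 and −0.47. At the depth estimated from the steps of the FPKM values its lowest library held about 132 fragments. Their counting error of 8.7% does not include the spread between libraries.

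Slco1a1, which encodes OATP1A1 and is known as a male-predominant gene of mouse liver, had 42.4 and 42.0 FPKM in the KO libraries, against 70.5 and 50.9 FPKM in the WT libraries. The KO libraries were alike and below both WT libraries, which themselves lay far apart. The log2 difference was −0.50 (SE 0.17, 95% interval −0.91 to −0.09, limma adjusted p = 0.57), and the gap between the WT libraries was 0.46 on that scale. Leaving out WT replicate 1 gave −0.26, and leaving out WT replicate 2 gave −0.73.

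Slco1b2, which encodes OATP1B2, the main OATP of mouse hepatocytes, had 238.6 and 205.6 FPKM in the KO libraries, against 223.6 and 225.6 FPKM in the WT libraries. The WT values lay between the KO values. The log2 difference was −0.02 with a 95% interval of −0.33 to 0.29 (limma adjusted p = 0.983), and it was 0.09 without KO replicate 2. Slco1b2, Slco1a4 and Slco1a1 follow each other on chromosome 6 at 141629452 to 141686646, 141805438 to 141856284 and 141907281 to 141946962, in that order.

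Slco2b1 (OATP2B1) had 34.9 and 33.6 FPKM in the KO libraries, against 37.8 and 37.3 FPKM in the WT libraries. The groups did not overlap, but the log2 difference was small, −0.13 with a 95% interval of −0.37 to 0.11 (limma adjusted p = 0.796). Of its 3 rows, NM_175316 and NM_001252531 carried nearly all of the signal. NM_001252531 alone had 9.85 and 10.1 FPKM in the KO libraries, against 10.9 and 11.0 FPKM in the WT libraries, so this row was also lower in both KO libraries.

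The 5 importers together summed to 561.8 and 473.0 FPKM in the KO libraries, against 694.9 and 653.7 FPKM in the WT libraries, and their make-up differed. Slc10a1 held 43.5% and 40.2% of the importer sum in the KO libraries, against 51.8% and 51.5% in the WT libraries. Slco1b2 held 42.5% and 43.5% in KO, against 32.2% and 34.5% in WT. In the KO libraries these 2 importers were thus near parity, with Slco1b2 at 0.978 and 1.08 times the Slc10a1 level, against 0.621 and 0.670 times in WT. These shares are fixed by the levels already given and carry no further test.

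**Figure D2:**
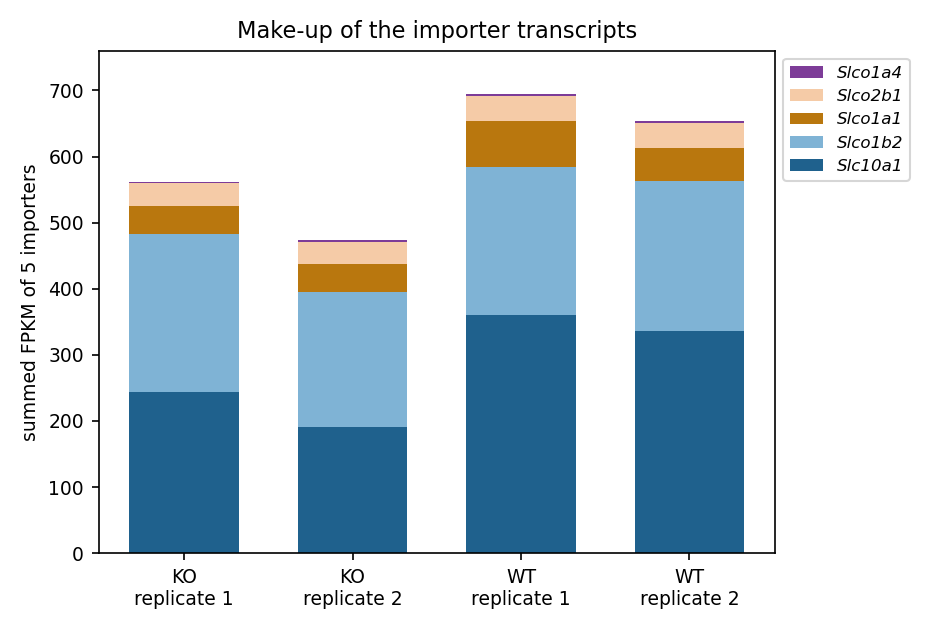
Summed FPKM of the 5 sinusoidal importers in each library, divided by gene. The Slc10a1 block is shorter in each KO bar than in either WT bar, while the Slco1b2 block is of like height in all 4.

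Abcb11, the bile salt export pump gene (chromosome 2, 69238282 to 69342616), had 135.7 and 124.5 FPKM in the KO libraries, against 148.4 and 149.0 FPKM in the WT libraries. Both KO libraries were lower and the WT libraries were nearly equal. The log2 difference was −0.19 (SE 0.11, 95% interval −0.47 to 0.08, limma adjusted p = 0.733). The ratio of Slc10a1 to Abcb11 within a library was 1.80 and 1.53 in KO, against 2.43 and 2.26 in WT, so the importer differed by more than the exporter in both KO libraries.

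Abcc2, which encodes MRP2 (chromosome 19, 43782308 to 43838332), had 43.3 and 40.1 FPKM in the KO libraries, against 54.3 and 49.0 FPKM in the WT libraries. The groups did not overlap. The log2 difference was −0.30 (SE 0.11, 95% interval −0.57 to −0.03, limma adjusted p = 0.614).

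Abcb4, which encodes MDR2, had 55.8 and 53.1 FPKM in the KO libraries, against 56.8 and 51.9 FPKM in the WT libraries, with the KO values inside the WT range. Its log2 difference was 0.0032 with a 95% interval of −0.26 to 0.27 (limma adjusted p = 0.997), and its sign turned under both other scalings. Atp8b1 (chromosome 18) had 7.08 and 7.78 FPKM in the KO libraries, against 6.98 and 7.23 FPKM in the WT libraries, which overlap. Its log2 difference was 0.06 with a 95% interval of −0.20 to 0.32 (limma adjusted p = 0.925). For the phosphatidylcholine transporter and the flippase the difference was within the spread between libraries.

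Abcc3, which encodes MRP3, had 50.1 and 51.2 FPKM in the KO libraries, against 44.3 and 48.3 FPKM in the WT libraries. Both KO libraries were higher, by 9.5% of the WT mean. The log2 difference was 0.13 (SE 0.11, 95% interval −0.13 to 0.39, limma adjusted p = 0.809). It was 0.07 without WT replicate 1. Abcc3 lies on chromosome 11, as the targeted gene does, at 94343295 to 94393017 and 34.1 megabases from Srebf1.

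**Figure D3:**
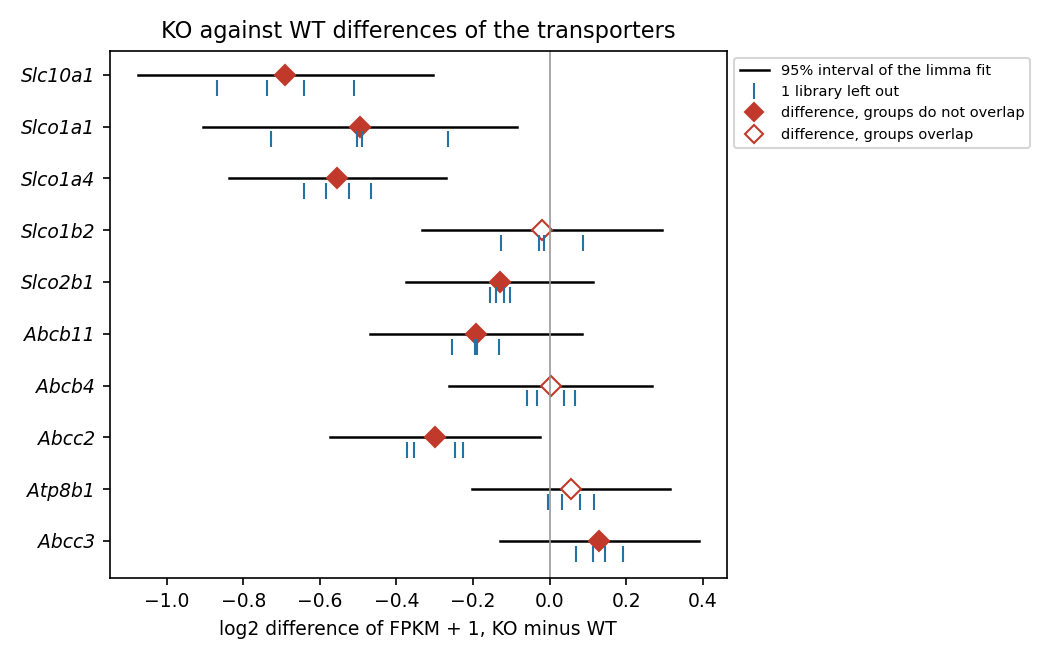
Log2 differences (KO minus WT, FPKM + 1) with 95% intervals of the limma fit, and the same differences with 1 library left out (blue ticks). Filled diamonds mark genes whose KO and WT libraries do not overlap. The intervals of Slc10a1, Slco1a1, Slco1a4 and Abcc2 lie below 0, and those of the other 6 cross 0.

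Counted over the 10 genes, 4 were lower in KO at an unadjusted limma p under 0.05 (Slc10a1, Slco1a1, Slco1a4 and Abcc2) and 0 were higher, against 3.25% of all genes tested lower and 4.5% higher (7.75% in either direction). The difference was below 0 in 7 of the 10, against 45.4% of all genes. The libraries did not overlap in 6 of the 10 with KO lower, against 16.4% of all genes, and in 1 with KO higher, against 22.4%. These shares of all genes are the ones to read beside each such count for a gene list below, also where they are not repeated. The median log2 difference was −0.16 over the 10, −0.50 over the 5 importers and −0.09 over the 4 canalicular genes, beside 0.02 over all genes tested. The median of the 10 was −0.12 without KO replicate 2. All 10 genes passed the minimum of 1 FPKM.

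Srebf1 itself had 8.63 and 6.97 FPKM in the KO libraries, against 63.7 and 58.2 FPKM in the WT libraries (log2 difference −2.82, limma adjusted p = 0.00172, and 0.136 and 0.0923 without WT replicate 1 or 2). Low FPKM values lay on steps that put the depth at 22.75 M and 20.55 M fragments in the KO libraries and 22.85 M and 20.8 M in the WT libraries, so each genotype had 1 library of either depth. Of the low values 49.0% to 52.0% lay within 0.1 of a whole fragment, and no count test was run. Of the hepatocyte markers Apoa1, Ttr, Serpina1a, Cps1, Hnf4a and Tat were at 106.2 FPKM or more in each library, while Alb was listed at 0 in all 4. A listed 0 therefore need not mean that a transcript was absent.

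KO replicate 2 stood apart in acute phase genes. The 28 genes of that list summed to 13370 FPKM in KO replicate 1 and 34430 FPKM in KO replicate 2, against 15800 and 19540 FPKM in the WT libraries, and 27 of the 28 had a positive log2 difference (median 0.29, and −0.34 without KO replicate 2). None of them passed the threshold, and 6 of the 28 were higher in both KO libraries, beside 22.4% of all genes tested. Of the 10 transporters, 7 were lowest in KO replicate 2: all 5 importers, Abcb11 and Abcc2. KO replicate 1, which had the lowest acute phase sum of the 4 libraries, also had 6 of these below both WT libraries, and had the highest Slco1b2 value of the 4. Of 14 male-biased genes other than Slco1a1, 13 were measured and all 13 had negative differences (median −0.29, and −0.0013 without KO replicate 2). Both KO libraries lay below WT in 4 of them. Among all genes tested, 45.4% had negative differences and 16.4% lay below WT in both KO libraries. Of the female-biased list 2 genes were measured, and Cyp17a1, a steroid hydroxylase gene, was the only gene of any list that passed the threshold. It was lower, with 0.469 and 0.677 FPKM in KO, against 3.59 and 3.15 FPKM in WT (log2 difference −1.48, limma adjusted p = 0.0374). Its mean passed the minimum of 1 FPKM only through the WT libraries, and both KO values lay under that minimum. The part of these groups in the transporter values was not tested.

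Markers of some other liver cells also differed between the libraries. The cholangiocyte list summed to 50.25 and 41.7 FPKM in the KO libraries, against 25.4 and 23.5 FPKM in the WT libraries, nearly all of it Spp1, which had 45.5 and 37.0 FPKM in KO, against 21.3 and 20.2 FPKM in WT (limma adjusted p = 0.136). Of its 6 genes, 3 passed the minimum: Spp1 and Krt19 were higher in both KO libraries, and Sox9 overlapped. Krt19, a keratin of bile ducts, had 2.23 and 1.28 FPKM in KO, against 0.889 and 0.861 FPKM in WT, so its mean passed the minimum only through the KO libraries. Below the minimum and not tested, Krt7 had 0.699 and 0.639 FPKM in KO, against 0.523 and 0.509 FPKM in WT, and Epcam had 0.632 and 0.670 FPKM in KO, against 0.479 and 0.5002 FPKM in WT. Both were thus also higher in both KO libraries, while Cftr was at most 0.034 FPKM. The Kupffer cell list summed to 58.9 and 106.1 FPKM in KO, against 78.1 and 62.8 FPKM in WT, the endothelial list to 55.55 and 66.8 FPKM in KO, against 50.2 and 52.8 FPKM in WT, and the stellate list to 49.97 and 50.59 FPKM in KO, against 46.3 and 51.5 FPKM in WT. The share of these cells in the transporter differences was not tested. The hepatocyte list summed to 15360 and 15410 FPKM in KO, against 16210 and 17840 FPKM in WT. Of its 6 measured genes, 3 were lower in both KO libraries (Apoa1, Serpina1a and Cps1) and 1 higher (Hnf4a), while Ttr and Tat overlapped. The shares over all genes tested were 16.4% lower and 22.4% higher. In a bulk liver sample fewer hepatocytes and less RNA of a gene per hepatocyte cannot be told apart.

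Of 14 periportal genes, 11 had both KO libraries below both WT libraries and 0 above (median −0.34), and 6 were lower at an unadjusted limma p under 0.05. Of 12 pericentral genes, 2 lay below and 3 above (median 0.09), and 2 were higher at that p. Over all genes tested, 16.4% lay below and 22.4% above, and 3.25% were lower and 4.5% higher at that p. None of either list passed the adjusted threshold. The part of zonation in the transporter values was not tested. Cps1, the first enzyme of the urea cycle, had 361.8 and 399.6 FPKM in KO, against 619.5 and 621.3 FPKM in WT.

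Other transporters of bile acids and bile lipids were split in direction. Of 10 listed, 8 were measured, 0 passed the limma threshold, 4 had negative and 4 positive differences (median 0.0034). Slc51b, the beta subunit of the basolateral bile acid exporter OSTα/β, had 4.03 and 2.14 FPKM in the KO libraries, against 5.32 and 4.57 FPKM in the WT libraries (log2 difference −0.58, limma adjusted p = 0.627). Its partner Slc51a was listed at 0 in all libraries, as was Alb, so that 0 need not mean absence. Abcg5, which with Abcg8 forms the sterol exporter of the canaliculus, had 19.8 and 24.8 FPKM in KO, against 12.3 and 17.7 FPKM in WT, and Abcg8 had 18.0 and 21.8 FPKM in KO, against 11.8 and 18.9 FPKM in WT. The Abcg5 libraries did not overlap and those of Abcg8 did.

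Among 8 other Slco genes only Slco2a1, a prostaglandin transporter, reached the minimum, with 26.5 and 22.1 FPKM in KO, against 28.0 and 24.3 FPKM in WT. Slco1a5 and Slco1a6, which lie beside Slco1a1, were below 0.06 FPKM in every library. Of 50-base words of the Slco1a1 transcript, 2.6% occurred in transcripts of other genes, mostly Slco1a4. Of Slco1a4 words 2.73% did, mostly in Slco1a5. For the other 8 genes that share ran between 0% and 3.42% (Abcb4, with Abcb1a). Only exact matches were counted. Slco1a1 had a mean of 51.5 FPKM and Slco1a4 of 2.38, so even a small shared part of Slco1a1 could weigh on the Slco1a4 value. How many Slco1a4 fragments came from Slco1a1 was not tested.

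Of 15 other Abcc and Abcb genes, 7 were measured, with 1 lower and 1 higher in both KO libraries and 0 past the limma threshold. Abcb6, a porphyrin transporter, had 40.1 and 35.5 FPKM in KO, against 29.9 and 32.05 FPKM in WT. Of 18 transporters of other organic ions, 16 were measured, 2 were lower and 4 higher in both KO libraries, and 0 passed. Beside both lists, 16.4% of all genes tested were lower and 22.4% higher in both KO libraries. Slc26a1, a sulfate and oxalate exchanger, had 40.2 and 35.9 FPKM in KO, against 63.9 and 46.8 FPKM in WT.

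**Figure D4:**
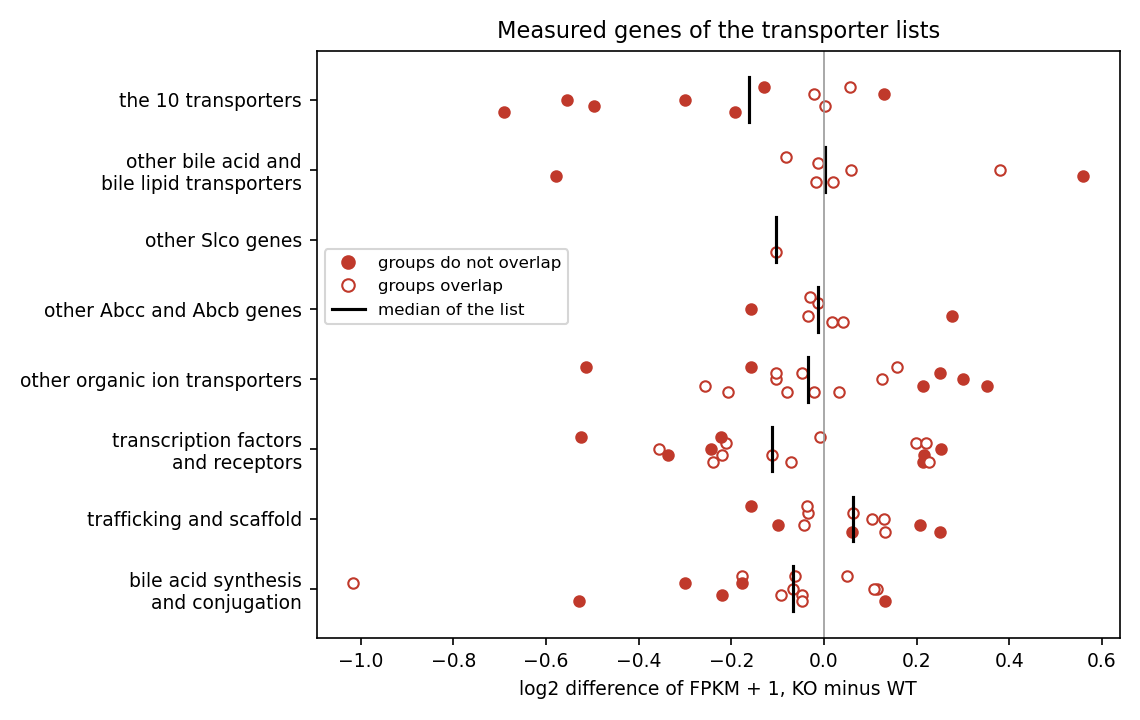
Log2 differences (KO minus WT, FPKM + 1) of the measured genes in each list, with filled points where the KO and WT libraries do not overlap and a black line at each median. Drawn are the 10 transporters (median −0.16) and 7 lists of other transporters, transcription factors and receptors, trafficking genes and bile acid enzymes, with medians between −0.11 and 0.06. Not drawn are lists whose medians lie farther from 0, among them periportal genes at −0.34 and acute phase genes at 0.29.

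Of 19 transcription factors and receptors that are known to act on these genes or on bile acid sensing, 17 were measured, 4 were lower and 3 higher in both KO libraries, and 0 passed the limma threshold. Over all genes tested, 16.4% were lower and 22.4% higher without overlap. Klb, the co-receptor of FGF15 signalling, had 4.47 and 4.63 FPKM in KO, against 5.90 and 6.11 FPKM in WT (log2 difference −0.34, limma adjusted p = 0.515). Nr1h4 (FXR), with its rows summed, had 44.8 and 34.5 FPKM in KO, against 67.4 and 48.1 FPKM in WT (−0.52, adjusted p = 0.625). Hnf4a, the hepatocyte nuclear factor, had 121.0 and 142.5 FPKM in KO, against 120.4 and 106.2 FPKM in WT (log2 difference 0.21, limma adjusted p = 0.751). Fgfr4, the receptor that pairs with Klb, had 13.3 and 14.4 FPKM in KO, against 10.8 and 12.1 FPKM in WT (0.25, adjusted p = 0.644). The receptor PXR (Nr1i2) and the repressor SHP (Nr0b2) overlapped between the genotypes. PXR, CAR and NRF2, receptors and a factor, also act on Abcc2, Abcc3 and Slco1a4. Of 14 measured targets of these, 3 were lower in both KO libraries and 0 higher. The median difference of the 14 was −0.23, and 0.0014 without KO replicate 2. Cyp3a11 was one of the 3 lower, with 487.4 and 694.1 FPKM in KO, against 972.8 and 1210 FPKM in WT (limma adjusted p = 0.405).

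The 12 trafficking and scaffold genes that place transporters in the membrane were all measured, with 2 lower and 3 higher in both KO libraries, 0 past the threshold and 0 at an unadjusted p under 0.05. Hax1, a BSEP-binding protein, had 62.5 and 59.5 FPKM in KO, against 54.3 and 51.1 FPKM in WT. Of 15 enzymes of bile acid synthesis and conjugation, 4 were lower and 1 higher in both KO libraries (median −0.07), and 0 passed. Cyp8b1, the 12α-hydroxylase that sets the cholic acid share, had 154.7 and 107.6 FPKM in KO, against 209.4 and 166.3 FPKM in WT. Cyp7a1, which encodes the first and rate-limiting enzyme of the classic route, had 5.90 and 2.63 FPKM in KO, against 18.8 and 4.17 FPKM in WT, and its groups overlapped (log2 difference −1.02, limma adjusted p = 0.744). Baat, the enzyme that conjugates bile acids, had 118.9 and 128.9 FPKM in KO, against 121.5 and 134.7 FPKM in WT and overlapped. Of 13 measured genes of the fasting response, 3 were lower and 1 higher in both KO libraries. For each list of this paragraph, the shares over all genes tested were 16.4% lower and 22.4% higher.

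The genes whose pattern over the 4 libraries was most like that of Slc10a1, among 4155 other genes with a mean of at least 10 FPKM, were Ces3b, Slc37a4 and Rbm3, at Euclidean distances of 0.073, 0.108 and 0.123 between log2 deviations. Ces3b, a carboxylesterase gene, had 118.5 and 97.0 FPKM in KO, against 173.1 and 162.1 FPKM in WT. Slc37a4, the glucose-6-phosphate transporter gene of the endoplasmic reticulum, had 54.3 and 44.1 FPKM in KO, against 89.1 and 77.1 FPKM in WT. Among the other transporters with such a mean, the nearest were Slco1a1 at position 97 and Abcc2 at position 123 in that order. Slco1a4 and Atp8b1 fell below 10 FPKM and were not ranked.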

How the data were processed

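Liver RNA of 2 KO and 2 WT libraries was sequenced, and groups and replicate numbers were read from the sample titles. Since no label states that the libraries are of separate animals, a p-value here reflects the spread among these libraries alone, and that spread may be technical. Per the file headers, the authors deposited an FPKM value for each library and RefSeq transcript. Bowtie, TopHat and the mm10 build are named in the submitters' processing notes. Not given in the sources used here are the FPKM program, its annotation and whether strand was used. Reads of Abcb11 or Slco2b1 therefore cannot be told from those of the antisense genes annotated on their exons.

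The 33170 rows were summed to 23920 genes by gene number. The log2(FPKM + 1) values of the 9820 genes whose mean reached 1 FPKM entered a limma fit (version 3.58.1, R 4.3.3, with an intensity trend), and Benjamini-Hochberg adjustment covered all 9820. The exact permutation test of 2 libraries against 2 cannot go below p = 0.333 (two-sided) and was not used. The fit was tested on simulated data. Positions come from RefSeq (GRCm38, matched for all 10 genes), and transcripts from GENCODE M21. Depth was estimated from the steps of low FPKM values of genes with 1 row. The named genes are the 10 members, Srebf1, up to 4 of each list by smallest p, the 3 nearest patterns to Slc10a1 and markers of other cell types. Hnf4a, Baat, Nr1i2, Nr0b2, Slc51a, Slco1a5, Slco1a6 and the hepatocyte markers fall outside that rule and were added after their values were seen. The members and the lists were chosen with earlier results of these data known. Alternatives were pseudocounts of 0.1 and 0.5, no filter or a minimum of 5 FPKM, upper-quartile or quantile scaling, no trend, a robust prior, a block for the replicate number, leaving out libraries in turn, the leading row of each gene, every row, and a threshold of 0.1.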

Additional observations from a re-analysis of the deposited data

How the results depend on the processing

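The directions of Slc10a1, Slco1a1, Slco1a4, Slco2b1, Abcb11, Abcc2 and Abcc3 held under every alternative in which they were tested. Slco1a4 fell below the minimum of 5 FPKM and was not tested there. The sign of Abcb4 turned to −0.012 with quantile and −0.022 with upper-quartile scaling. With 1 library left out the difference ran from −0.060 to 0.067 for Abcb4, from −0.0040 (without KO replicate 2) to 0.115 for Atp8b1 and from −0.127 to 0.087 (without KO replicate 2) for Slco1b2. The number of the 10 past the threshold was 0, and it ran from 0 to 1 with 1 library left out (Slc10a1, without KO replicate 1). The adjusted p of Slc10a1 ran from 0.00776 (without KO replicate 1) to 0.9996 (without WT replicate 1) over all alternatives. The count over all genes, 7, was 4 with the leading row of each gene, 3 with a minimum of 5 FPKM, 11 with a pseudocount of 0.1, 4 with quantile scaling and 15 with a robust prior. It was 0 without a filter, where limma gave 1233 genes at an unadjusted p under 0.05. With 1 library left out it ran from 1 to 306, and the lone library of a genotype was then assumed to vary like the others. The cause was not tested. With the replicate block it was 19, none of them among the 10. Same-numbered libraries deviated from their group means with a correlation of 0.167 across genes, but nothing in the labels pairs them. Depth limits Slco1a4 and the minor rows of Slc10a1 and Slco2b1.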

Other observations

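A minor row of Slco2b1, NM_001252530, had 0.650 and 0.178 FPKM in the KO libraries, against 0.162 and 0.175 FPKM in the WT libraries, an estimated 65 fragments in KO replicate 1 and 16 in each of the other libraries. It held 1.86% of the Slco2b1 sum in KO replicate 1 and at most 0.53% elsewhere, so the gene sum hardly moved with it.

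Fabp2, a fatty acid binding protein of the intestine that was listed as a marker of that tissue, had 250.1 and 159.1 FPKM in the KO libraries, against 135.6 and 138.5 FPKM in the WT libraries (limma adjusted p = 0.644). The other intestinal markers, Vil1, Cdh17 and Muc2, were at most 0.084 FPKM in every library. Of the pancreas markers Prss2, Cpa1 and Ctrb1 were listed at 0 in all 4, as was Alb, and Cela2a was at most 0.366 FPKM. Those zeros need not mean absence.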
